A study of Arabidopsis thaliana with 6 samples.

Results

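The 8 transcripts described here come from the plastid's own genome: the RNA polymerase subunit genes rpoA, rpoB, rpoC1 and rpoC2, and the genes accD, matK, rps16 and ycf4. They were chosen by gene symbol in the platform's probe annotation. Each had 1 probe set, and all 8 passed the filter on dim signals. They are 8 of 13513 probe sets with 1 gene name, among 22746 probe sets other than controls, and 8 of 69 that the gene table places on the plastid genome.

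RNA of whole Arabidopsis thaliana seedlings was measured on 6 Affymetrix ATH1 arrays, 1 sample per array. The pif1-2 group (3 arrays) carries insertion line Salk_072677 in PIF1, a phytochrome-interacting transcription factor that restrains greening programmes in darkness, and the wild-type group (3 arrays) is Columbia (Col-0). Both groups had the same treatment: seeds plated on MS medium had a cold period of 4 days, then 1 hour of light for germination and 4 days of darkness at 21 °C. The mutant group is a single insertion allele whose PIF1 mRNA the labels call very low, and its etiolated seedlings are shorter than wild type.

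Plastid genes are read by 2 kinds of polymerase. The plastid-encoded polymerase is a bacterial type, built from the products of rpoA (the alpha subunit), rpoB (beta), rpoC1 (beta prime) and rpoC2 (beta double prime) together with nuclear-encoded sigma factors, and it reads most photosynthesis genes. A phage-type polymerase encoded in the nucleus reads the rpoB-rpoC1-rpoC2 cluster and, in many flowering plants, accD. In dark-grown seedlings the plastids are etioplasts, which hold little chlorophyll and wait for light. Most plastid mRNAs lack a long stable poly(A) tail, and the labels do not name the primer used to label the RNA. What the primer contributes to these signals was not tested.

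Signals are MAS5 intensities scaled to a 2% trimmed mean of 500 on each array. Probe sets differ in how strongly they bind, so a signal is compared here between arrays and never between genes. Fold changes are pif1-2 minus wild type on the scale of log2(signal + 16), with standard errors from limma fitted to all 17695 probe sets whose signal averaged 50 or more over the 6 arrays. P-values are two-sided and adjusted by Benjamini-Hochberg over those probe sets, with a threshold of 0.05. In whole seedlings fewer cells or plastids of a kind cannot be told apart from less RNA in each.

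None of the 8 transcripts passed the threshold (0 of 8), as against 2 of all 17695 probe sets (0.0113%). ycf4 and rps16 had the lowest signals in pif1-2 relative to wild type, at about 0.70 and 0.67 of the wild-type mean. accD stood at 0.816 of it. The 4 polymerase subunits had ratios of means between 0.915 and 1.17. At an unadjusted limma p under 0.05, 2 of the 8 were lower in pif1-2, ycf4 and rps16, against 4.36% of all probe sets tested, and 0 were higher, against 3.31%. Of the other 61 plastid-encoded probe sets, 24.6% were lower and 3.28% higher at that p. The 2 groups of arrays did not overlap for 4 of the 8 (ycf4, rps16, accD and rpoC2), each with pif1-2 lower, against 6.58% of all probe sets tested and 27.9% of the other plastid-encoded ones. For 0 of the 8 was every pif1-2 array higher, against 6.49% of all tested and 3.28% of the other plastid-encoded ones. The log2 fold change was below 0 for 6 of the 8, for 49.9% of all tested and for 72.1% of the other plastid-encoded probe sets. The median log2 fold change of the 8 was -0.14, beside -0.13 for the other 61 plastid-encoded probe sets and 0.00095 for all tested. Leaving out 1 array gave -0.21 to -0.11 for the 8, and without pif1-2 replicate 2 the medians were -0.21 for the 8 and -0.22 for the other plastid-encoded ones.

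**Figure D1:**
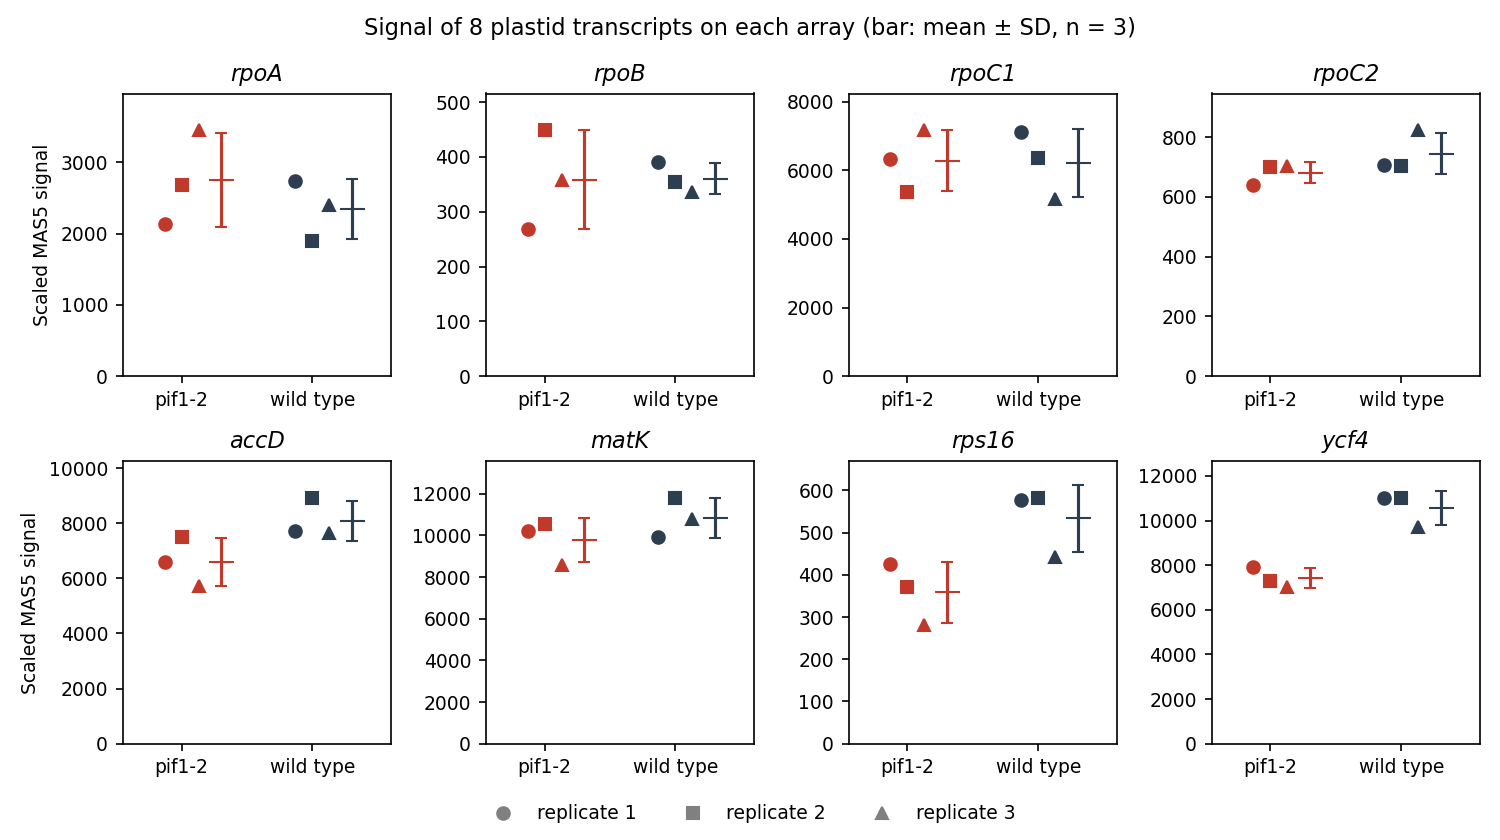
Scaled MAS5 signal of each of the 8 transcripts on each array, with pif1-2 on the left and wild type on the right of each panel. Symbols mark the replicate numbers, and the bar beside them is the mean ± SD of 3 arrays. The pif1-2 points of ycf4 lie between 7029 and 7924, below the wild-type points between 9701 and 11018.5, while the points of rpoA, rpoB, rpoC1 and matK overlap between the groups.

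2 of the pif1-2 arrays had control readings unlike the others. The array of replicate 3 had an actin 3-prime to 5-prime signal ratio of 8.07, against 3.82 and 5.17 on the other pif1-2 arrays and 3.53 to 4.49 in wild type. The array of replicate 2 had a deposited 25S rRNA control signal of 545.5, against 6959 and 13935.5 on the other pif1-2 arrays and 5877 to 11391 in wild type. The part of either reading in the results was not tested. Values without an array are given for the log2 fold changes of the members. They are not given for genome neighbours, groups of genes by function or correlations. Markers of the seedling's parts were present in both groups: the 5 cotyledon and hypocotyl markers measured summed to 27283 to 38482 on pif1-2 arrays and 30678 to 37191 on wild-type arrays, and the 3 root markers to 417 to 858 on pif1-2 arrays and 431 to 891 on wild-type arrays. Of the 7 seed storage markers listed only OLEO3, an oleosin, had a named probe set, at 841 to 1036 on pif1-2 arrays and 1477 to 1757 on wild-type arrays, with no overlap. Its part in the results was not tested. The pollen marker ANX1, which seedlings should lack, stayed at 3.85 to 10.3 on pif1-2 arrays and 8.20 to 9.62 on wild-type arrays. PIF1 itself had 0 probe sets under its name, and the series title prints locus At2g20810 where the gene table lists PIF1 at AT2G20180, so the genotype rests on the labels.

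The first subunit gene, rpoA, makes the alpha subunit, on which the bacterial-type core enzyme assembles. Its signals were 2135, 2676 and 3449 on the pif1-2 arrays of replicates 1 to 3, and 2737, 1899 and 2407 on the wild-type arrays. The groups overlapped widely, with the highest value on the pif1-2 array of replicate 3 and the lowest on the wild-type array of replicate 2. On the log2 scale pif1-2 minus wild type was 0.22 (SE 0.19, limma adjusted p = 0.842), with a 95% interval from -0.20 to 0.63. It was 0.042 with pif1-2 replicate 3 left out, 0.073 with wild type replicate 2, 0.39 with pif1-2 replicate 1 and 0.33 with wild type replicate 1 left out.

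rpoB makes the beta subunit, which forms the catalytic centre together with beta prime. It gave 268, 449 and 358 in pif1-2, against 391, 354 and 336 in wild type. Both the highest and the lowest array were pif1-2, and the wild-type arrays lay between them. The pif1-2 arrays had a coefficient of variation of 25.2%, against 7.90% in wild type. The log2 fold change was -0.035 (SE 0.19, limma adjusted p = 0.980). It was 0.15 with pif1-2 replicate 1 left out, 0.024 with wild type replicate 1 and -0.21 with pif1-2 replicate 2 left out, so it has no settled sign.

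rpoC1, the gene of the beta prime subunit and the only subunit gene of the set with an intron, had signals of 6318, 5371 and 7165 in pif1-2, against 7121, 6359 and 5156 in wild type. The group means were nearly equal, 6285 ± 898 in pif1-2 and 6212 ± 990 in wild type (SD, n = 3). Their difference on the log2 scale was 0.019 (SE 0.16, limma adjusted p = 0.985). It was -0.080 with pif1-2 replicate 3 left out, -0.11 with wild type replicate 3 and 0.13 with pif1-2 replicate 2 left out, and -0.018 with quantile normalization.

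rpoC2 makes the beta double prime subunit, which bacteria such as Escherichia coli lack as a separate protein. It had signals of 639, 701 and 703 in pif1-2, against 707, 704 and 823 in wild type. The groups did not overlap, but only narrowly: 703.4 on the highest pif1-2 array stood against 703.9 on the lowest wild-type array. On the log2 scale the difference was -0.12 (SE 0.14, limma adjusted p = 0.886). Leaving out wild type replicate 3 gave -0.050, and leaving out pif1-2 replicate 1 gave -0.079. The groups of rpoC2 overlapped with median centring and with quantile normalization. In each of these settings 3 of the 8 members instead of 4 were lower without overlap. The shares of all probe sets tested were 5.90% and 6.48%, and those of the other plastid-encoded ones 24.6% and 31.1%.

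For the subunit genes the intervals show how large a difference these arrays allow. The 95% intervals, as folds of pif1-2 over wild type, ran from 0.873 to 1.55 for rpoA, from 0.732 to 1.30 for rpoB, from 0.801 to 1.28 for rpoC1 and from 0.742 to 1.14 for rpoC2. A difference of more than 1.37-fold downwards lay outside the interval of each of the 4, and they do not show that the levels were equal. Taken over the 4, the median log2 fold change was -0.0076, with 2 negative and 2 positive.

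accD makes the beta-carboxyltransferase subunit of the plastid acetyl-CoA carboxylase, which starts fatty acid synthesis. It had signals of 6586, 7486 and 5737 in pif1-2, against 7704, 8921 and 7644 in wild type. All 3 pif1-2 arrays lay below the wild-type arrays, with replicate 2 of pif1-2 close to the lowest wild-type array. On the log2 scale accD differed by -0.30 (SE 0.14, limma adjusted p = 0.656), with an unadjusted p of 0.0512. It was -0.20 without pif1-2 replicate 3 and -0.39 without pif1-2 replicate 2.

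matK lies inside the intron of the lysine tRNA gene trnK and makes a maturase that helps group II introns to splice. Its signals were 10204, 10568 and 8564 in pif1-2, against 9918, 11803 and 10787 in wild type. The groups overlapped, and the lowest array was replicate 3 of pif1-2. On the log2 scale matK differed by -0.15 (SE 0.13, limma adjusted p = 0.842), which was -0.058 with pif1-2 replicate 3 left out and -0.087 with wild type replicate 2 left out. A probe set inside matK cannot tell its own mRNA from the unspliced trnK precursor that contains it.

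rps16, the gene of protein S16 of the small ribosomal subunit, also has an intron. Its signals were 425, 371 and 282 in pif1-2, against 577, 582 and 443 in wild type. The groups did not overlap, with replicate 1 of pif1-2 close below replicate 3 of wild type. The means were 359 ± 72.3 in pif1-2 and 534 ± 79.2 in wild type (SD, n = 3), and the log2 fold change was -0.56 (SE 0.18, limma adjusted p = 0.544, unadjusted p = 0.0107). It was -0.40 without pif1-2 replicate 3 and -0.69 without either pif1-2 replicate 1 or wild type replicate 3. Of all probe sets tested, 3.66% had a log2 fold change as low or lower.

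ycf4 makes a thylakoid protein that helps to assemble photosystem I. It had signals of 7924, 7294 and 7029 in pif1-2, against 10991.5, 11018.5 and 9701 in wild type. The gap between the groups was wider than the spread within either: the highest pif1-2 array stood at 7924 and the lowest wild-type array at 9701. The means were 7416 ± 460 in pif1-2 and 10570.4 ± 753 in wild type (SD, n = 3). The log2 fold change was -0.51 (SE 0.12, limma adjusted p = 0.312, unadjusted p = 0.00127), with a 95% interval from -0.77 to -0.25, and ycf4 ranked at place 72 of 17695 by p. Without 1 array it ran from -0.57 to -0.47. Groups that do not overlap cannot come to overlap when an array is left out, so overlap was not examined in those fits.

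**Figure D2:**
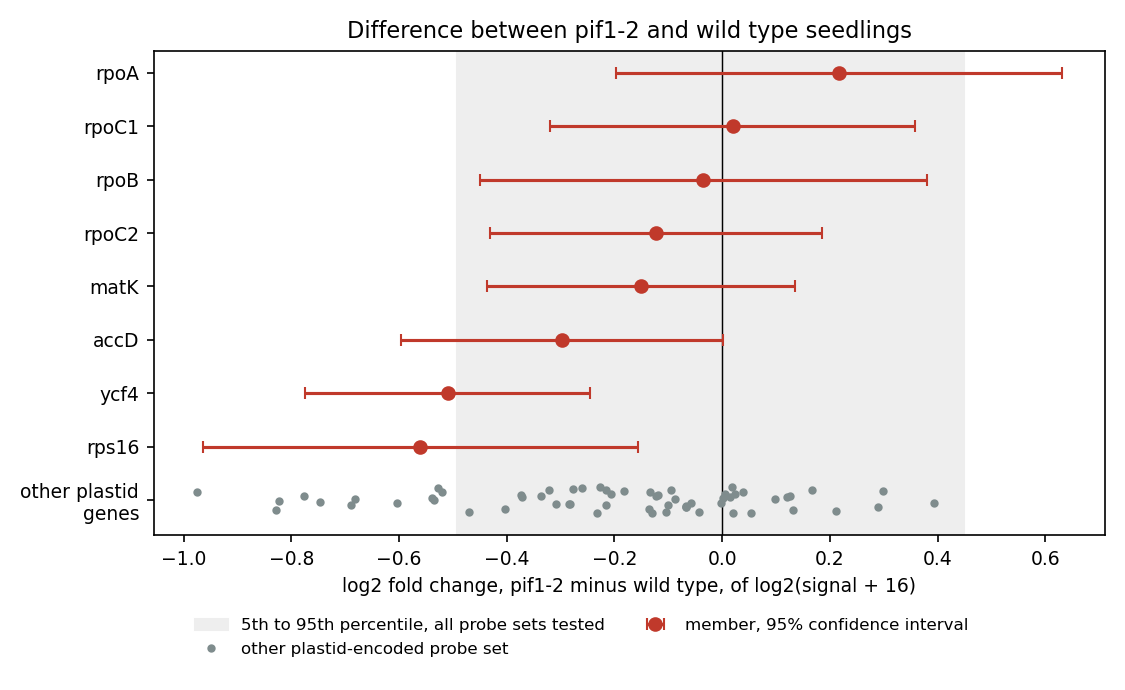
Log2 fold change, pif1-2 minus wild type, of the 8 transcripts with 95% confidence intervals from limma, and of the other 61 plastid-encoded probe sets as grey points in the lowest row. The shaded band holds the 5th to 95th percentile of all probe sets tested, from -0.49 to 0.45. The intervals of ycf4 and rps16 end below 0, that of accD ends at 0.0018, and those of matK and the 4 polymerase subunits span 0.

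The 8 genes lie at several places of the plastid genome, and their neighbours give a view of each surrounding stretch. accD and ycf4 lie in 1 stretch, in the order rbcL, accD, psaI, ycf4, cemA and petA, and the genes from psaI to petA are commonly transcribed together in land plants. Although ycf4 stood at -0.51, its immediate neighbours were at 0.12 (SE 0.12) for psaI, a photosystem I subunit, and -0.057 (SE 0.12) for cemA, an envelope protein. petA, the cytochrome f gene, was at -0.23 (SE 0.13) and rbcL, the large subunit of Rubisco, at -0.34 (SE 0.13).

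psaI gave 10217, 10884 and 11405 in pif1-2, against 9851, 10995 and 9117 in wild type, and the groups overlapped. cemA gave 11987, 11675 and 11375 in pif1-2, against 12625, 13294 and 10677 in wild type, and the groups overlapped as well. rbcL gave 4317, 4537 and 4269 in pif1-2, against 5390, 6197 and 5053 in wild type, with no overlap. petA gave 4278, 3806 and 4386 in pif1-2, against 4831, 4402 and 5401 in wild type, with narrowly no overlap. The shift of ycf4 therefore lay beside neighbours with log2 fold changes of either sign, those of psaI and cemA no larger than their SE. The difference between neighbours was not tested.

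The nearest protein-coding genes to the cluster rpoB-rpoC1-rpoC2 are petN, a small cytochrome b6f subunit, beyond rpoB, and the ribosomal protein gene rps2 and then atpI, an ATP synthase subunit, beyond rpoC2. petN was at -0.68 (SE 0.16, limma adjusted p = 0.312), with 772, 659 and 858 in pif1-2, against 1395, 1026.5 and 1289 in wild type. rps2 was at 0.023 (SE 0.19) and atpI at -0.37 (SE 0.18). The 3 genes of the polymerase cluster and rps2 had log2 fold changes between -0.12 and 0.023. The photosynthesis gene on each side had a lower value, with overlapping groups for atpI. Differences between these neighbours were not tested.

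rpoA lies between petD, a cytochrome b6f subunit at -0.28 (SE 0.16), and a run of ribosomal protein genes. The nearest of these with a named probe set was rpl36, a protein of the large ribosomal subunit. It gave 760.0, 1089 and 932 in pif1-2, against 709, 713 and 663 in wild type, so that all 3 pif1-2 arrays were higher (log2 fold change 0.39, SE 0.16, limma adjusted p = 0.637). From rpl36 to rps19, 6 genes were tested, a stretch singled out after its values were seen. Of these 6, 5 had a positive log2 fold change, with a median of 0.19 over the 6, and rpl16 was at -0.067 (SE 0.12).

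The next protein-coding gene beyond matK is psbA, which encodes the D1 protein of photosystem II. psbA was at -0.78 (SE 0.30), with 4504, 3620 and 3391 in pif1-2, against 3466, 8264 and 9746 in wild type, and the groups overlapped through wild type replicate 1. The next protein-coding gene beyond rps16 is psbK, another photosystem II gene, at -0.068 (SE 0.15).

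**Figure D3:**
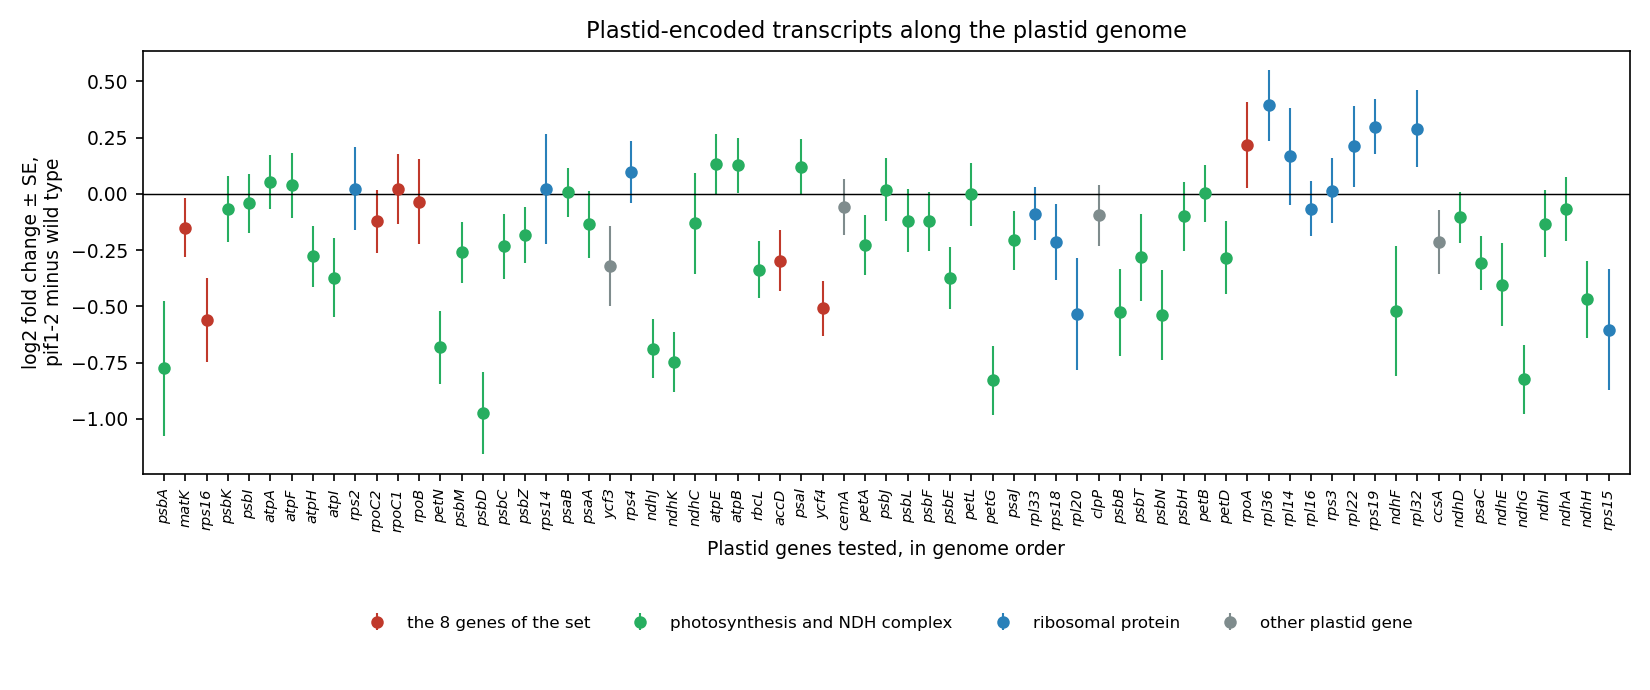
Log2 fold change ± SE, pif1-2 minus wild type, of the 69 plastid-encoded probe sets tested, in the order of their genes along the plastid genome. ycf4, at -0.51, stands between psaI at 0.12 and cemA at -0.057, and rpoA, at 0.22, adjoins the ribosomal protein genes from rpl36 to rps19.

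Beside the other plastid transcripts by function, the set had a median between those of ribosomal protein and photosynthesis genes. That median describes neither part of the set: it was -0.0076 for the 4 polymerase subunits and -0.40 for the other 4 genes. The other 4 ran from -0.56 for rps16 to -0.15 for matK, which lay close to rpoC2 at -0.12. With pif1-2 replicate 3 left out the 2 parts overlapped: the subunits ran from -0.15 to 0.042 and the other 4 genes from -0.47 to -0.058. The 14 plastid-encoded ribosomal protein genes tested, of 29 names listed, lay at a median of 0.021 on the log2 scale, 5 of them negative. At an unadjusted limma p under 0.05, 1 of them was lower, rps15 at -0.60 (SE 0.27), and 2 were higher, rpl36 and rps19 at 0.39 and 0.30. The 43 photosynthesis and NDH complex genes had a median of -0.23, with 35 negative, 14 lower and 0 higher at that p. Those of smallest p among them were ndhK, an NDH complex subunit, at -0.75, and petG, a cytochrome b6f subunit, at -0.83. Of the other plastid housekeeping genes, 4 of 12 names listed were tested and none had a p under 0.05: ycf3, another photosystem I assembly protein, at -0.32 (SE 0.18), ccsA, which attaches heme to cytochromes, at -0.22 (SE 0.14), clpP, a protease subunit, at -0.096 (SE 0.14), and cemA, given above. None of these genes passed the threshold over all probe sets.

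Each member was also set against the median of the other 61 plastid-encoded probe sets of its own array, which takes out a shift common to plastid RNA. In pif1-2 the ycf4 values were -0.31, -0.33 and -0.33 relative to the wild-type mean, against 0.12, -0.022 and -0.10 in wild type. The groups did not overlap, and the mean difference was -0.32. The exact two-sided permutation test gave p = 0.1, the smallest that 3 arrays against 3 allow, and 0.64 after adjustment over the 8 members.

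rps16 differed by -0.37 on this scale, with -0.21, -0.29 and -0.62 in pif1-2, against 0.18, 0.048 and -0.23 in wild type, and the groups overlapped (exact permutation p = 0.2). With 1 array left out the rps16 difference ran from -0.49 to -0.25. rpoA differed by 0.40, with -0.019, 0.41 and 0.82 in pif1-2, against 0.30, -0.37 and 0.073 in wild type (exact permutation p = 0.3). The rpoA difference was 0.19 with pif1-2 replicate 3 left out, 0.22 with wild type replicate 2 and 0.61 with pif1-2 replicate 1 left out. The remaining members lay between -0.11 for accD and 0.21 for rpoC1, with exact permutation p from 0.4 to 0.8. With 1 array left out, accD ran from -0.21 to -0.048 and rpoC1 from 0.073 to 0.34. So 1 of the 8 members had no overlap on this scale and was lower in pif1-2, and 0 were higher without overlap. Of all probe sets tested, 1.79% were lower and 18.3% higher without overlap here, against 6.58% and 6.49% on the scale before. The plastid median was lower on every pif1-2 array than on any wild-type array. Taking it off therefore raises every probe set in pif1-2 relative to wild type, and these shares give no measure for the members. The share of the other plastid-encoded probe sets was not computed on this scale. With a pif1-2 array left out, 4 members had no overlap without replicate 1 and 2 without replicate 2. With a wild-type array left out, 2 had none without replicate 1 and 2 without replicate 3. These counts take either direction, and fewer arrays overlap less often. Before the plastid median was taken off, 12.4% of all probe sets were lower without overlap when pif1-2 replicate 1 was left out, against 6.58% with all arrays. That share was not computed on the relative scale with an array left out, so no result about the members is drawn from these counts.

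**Figure D4:**
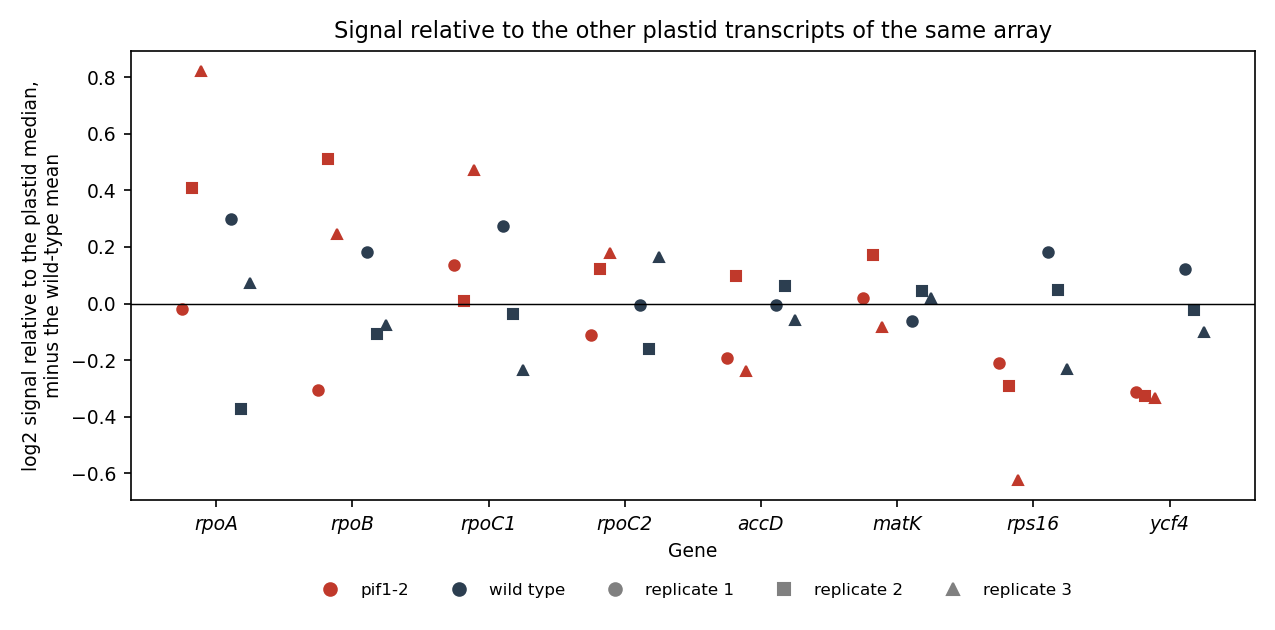
Log2 signal of each of the 8 transcripts relative to the median of the other plastid-encoded probe sets on the same array, minus the wild-type mean, with pif1-2 to the left of wild type for each gene and symbols for the replicate numbers. The pif1-2 points of ycf4 lie together near -0.32, below the wild-type points, whereas those of rpoA spread from -0.019 to 0.82.

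Among themselves the 8 transcripts did not vary as a unit. The array of pif1-2 replicate 3 showed the widest split: relative to the wild-type mean, the 4 polymerase subunits averaged 0.18 on it and accD, matK, rps16 and ycf4 averaged -0.57, on the log2 scale. On the pif1-2 arrays of replicates 1 and 2 the subunits averaged -0.17 and 0.058 and the other 4 genes -0.27 and -0.29. On wild-type arrays the subunits averaged between -0.085 and 0.12 and the other 4 genes between -0.11 and 0.12.

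Pearson correlations of the log2 signals over the 6 arrays describe the same split. They share the array scaling and any difference between the groups. All 6 pairs among accD, matK, rps16 and ycf4 were positive, from 0.60 to 0.93, whereas the 6 pairs among the polymerase subunits ran from -0.52 to 0.42. rpoA ran against matK with r = -0.89. After each group's mean was taken off, the 6 pairs among the other 4 genes were still positive, from 0.34 to 0.93, and rpoA with matK gave -0.87. All these correlations include the array of pif1-2 replicate 3, on which the other 4 genes averaged -0.57 relative to the wild-type mean. None was computed without that array, so they do not show that the split holds without it. The 3 genes of the rpoB cluster had pairwise correlations of -0.12 (rpoB with rpoC1), 0.25 (rpoB with rpoC2) and -0.52 (rpoC1 with rpoC2), although they are known to be transcribed together.

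**Figure D5:**
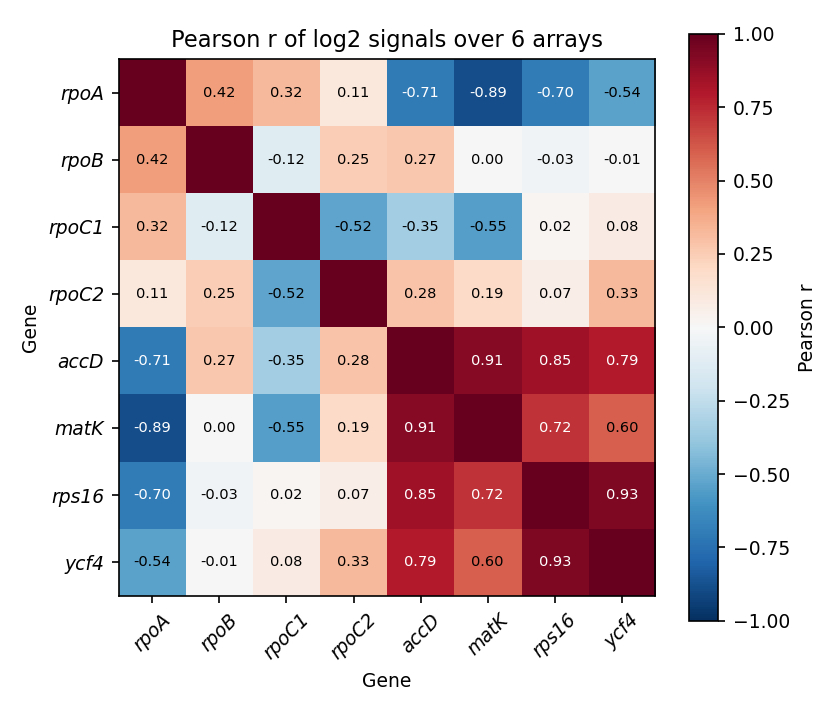
Pearson correlation of log2 signals over the 6 arrays for each pair of the 8 transcripts, on a colour scale from -1 to 1. The block of accD, matK, rps16 and ycf4 is positive throughout, from 0.60 to 0.93, while the polymerase subunits show values of either sign among themselves.

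The genes most like the mean profile of the 8 over the 6 arrays, among 9973 other named probe sets tested, were AT2G01610 (r = 0.989), AT1G67590 (0.989), CCMH (0.989), AT5G11980 (0.985) and AT5G47790 (0.979). CCMH is a cytochrome c maturation factor of mitochondria, and none of the 5 is plastid-encoded. Of the 9973, 67 had r above 0.9, and the likeness rests on 6 arrays. The pif1-2 arrays of CCMH gave 139, 155 and 137, against 200.4, 197 and 170 in wild type. The mean profile holds the difference between the groups, so such a difference in these genes follows in part from how they were picked.

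Few nuclear partners of these genes could be read by name. None of the 21 listed names for phage-type polymerases and sigma factors, the 33 for proteins associated with the plastid-encoded polymerase or the 16 for nuclear acetyl-CoA carboxylase subunits matched a probe set with 1 gene (0 of each), so these were not analysed here, nor were mitochondrion-encoded genes. Of 26 names for chloroplast RNA splicing and processing factors 4 were tested, all with negative log2 fold changes and none with an unadjusted limma p under 0.05. CAF1, a group II intron splicing factor, was at -0.54 (SE 0.37), and its signals were close to the filter: 42.8, 56.7 and 42.8 in pif1-2, against 101, 70.6 and 60.4 in wild type. OTP70, which acts in the splicing of the rpoC1 intron, was at -0.21 (SE 0.28), with 186, 97.4 and 248 in pif1-2, against 218, 173 and 193 in wild type. HCF101, which supplies iron-sulphur clusters for photosystem I, was the only assembly factor tested, at -0.17 (SE 0.14).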

How the data were processed

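Per the submitters' processing notes the authors used MAS5, and the deposited table holds 1 linear intensity for each probe set and array. Version and settings of MAS5: not given in the sources used here. All 6 arrays had a 2% trimmed mean of 500 as deposited, so they had been scaled before deposit. The number of arrays limits the precision.

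From these values, 64 control probe sets of 22810 were set aside, the arrays were brought to a 2% trimmed mean of 500 again, 5051 probe sets with a mean under 50 were left out, and log2(signal + 16) of 17695 was fitted with limma 3.58.1 in R 4.3.3 (lmFit, eBayes with trend), pif1-2 against wild type. The fit was tested on simulated data. Groups were taken from the sample titles, since the genotype field prints another allele number for each sample. The labels call the replicates biological and name no separate cultures, so p-values measure only the spread between these samples.

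Names came from the platform annotation, with 503 probe sets of several genes and 8730 without a name. RefSeq assembly TAIR10.1 gave gene order and matched 13436 names, all 8 members among them. No coordinates or sequences are printed. The members, lists and tests were chosen with earlier results of these data known. All 8 members, all tested genome neighbours, the 2 smallest p-values of each list and the 5 most similar profiles were named. Further genes of the ribosomal protein and housekeeping lists were named after their values were seen. Alternatives covered the pseudocount, scaling, filter, variance model, array weights, a replicate block and each array left out. Same-numbered arrays had deviations from the group means that correlated at 0.25, 0.099 and 0.088 across probe sets. Those of different-numbered arrays correlated at -0.16 to 0.054.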

Additional observations from a re-analysis of the deposited data

How the results depend on the processing

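Among the 8 transcripts none passed the adjusted threshold with limma under any of the 16 alternatives, and 6 of the 8 kept their sign in all of them, the exceptions being rpoB and rpoC1. The sign of rpoB was turned without pif1-2 replicate 1 (0.15) and without wild type replicate 1 (0.024), with the range from -0.21 to 0.15 over arrays left out. That of rpoC1 was turned with quantile normalization (-0.018), without pif1-2 replicate 3 (-0.080) and without wild type replicate 3 (-0.11), with the range from -0.11 to 0.13. The lowest adjusted p was that of ycf4 with the replicate number as a block, 0.0593, over a range up to 0.999. The count of probe sets passing over the whole table, 2, was 1 with median centring, with quantile normalization, with no filter and without the trend, 8 with array weights, and 0 to 7 when 1 array was left out, 0 of them without wild type replicate 2. There 429 were lower and 386 higher at an unadjusted limma p under 0.05. With the replicate number as a block it was 45. The labels name no shared batch for the numbers, so the block is given here only. Same-numbered arrays correlated at 0.25, 0.099 and 0.088, above every different-numbered pair (-0.16 to 0.054). Whether the numbers mark a pairing was not tested. With the block the unadjusted limma p of accD was 0.0137 instead of 0.0512, and no call of the 8 changed. On the scale relative to other plastid transcripts, the number of members without overlap, 1, was 2 with quantile normalization and 1 to 4 with 1 array left out. The share over all probe sets was not computed on this scale for these settings. The sign turned there without pif1-2 replicate 2 for rpoB (-0.028, with up to 0.38 without 1 array) and matK (-0.032, up to 0.095) and without wild type replicate 2 for rpoC2 (-0.016, up to 0.15). The cause of these moves was not tested. The number of members lower at an unadjusted limma p under 0.05 was 2 or 3 throughout, an alternative set chosen after seeing the data. The share of all probe sets tested that were lower at that p moved as well. It ran from 2.42% without wild type replicate 2, where the number was 2, to 6.29% with the replicate block, where it was 3. All 8 members passed the filter at 50 and at 100.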
